A study of Mus musculus with 4 samples.

Results

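Antigen presentation by the mouse eye was read through 7 genes of the major histocompatibility complex (MHC) system, chosen by name from the 17463 genes with at least 1 count in the deposited matrices. B2m, H2-K1 and H2-D1 belong to class I, and Cd74, H2-Aa, H2-Ab1 and H2-Eb1 to class II. All 7 were present, 3 of class I and 4 of class II. Posterior eyes of C57BL/6J mice, fresh-frozen and cryosectioned, were read with Visium, a spatial assay in which RNA from a section is captured on a grid of spots and counted as unique molecular identifiers (UMIs). Spots can cover several cells of different types. The series holds 4 capture frames, numbered by the labels as biological replicates 1 to 4, with no statement of which animals they came from. Every frame carries the single treatment label "Naive+AAV2/2". The study design names AAV2/2 vectors that overexpress Wif1, a secreted Wnt inhibitor, with CMV-Wif1-HA-IRES-GFP or CMV-Wif1-HA, a control vector with CMV-IRES-GFP, a wild-type control group, and groups at 2 and 4 weeks after injection. Because the frames share 1 label, these conditions could not be compared, and values of a frame may pool naive and injected eyes. Every comparison below is therefore between regions or spots of the same frames.

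Class I molecules sit on most nucleated cells and show peptides from the cytosol to cytotoxic T cells. Each one pairs a heavy chain, such as the products of H2-K1 and H2-D1, with the light chain beta-2 microglobulin from B2m. Class II molecules are made mainly by dendritic cells, macrophages and B cells and show peptides taken up from outside to helper T cells. H2-Aa and H2-Ab1 encode the alpha and beta chains of the I-A molecule, H2-Eb1 the beta chain of I-E, and Cd74 the invariant chain that escorts class II molecules to the compartment where peptides are loaded. The healthy neural retina is known for low MHC expression, and interferon gamma is a known inducer of both classes.

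The promoters of these genes are known to carry paired elements, the X2 and Y boxes, through which the regulators Nlrc5 (class I) and Ciita (class II) act. The stretches below are shown because they carry a feature that the 5 members printed, from both classes, share at the sequence level. In each, from the RefSeq annotation of GRCm38.p6 and written 5′ to 3′ on the strand of the gene, capitals mark TGACG or TGATG (the X2 box core) and, downstream, ATTGG (the Y box core). B2m lies on chromosome 2 (chr2:122147549-122147678, plus strand) and the others on chromosome 17: H2-K1 (chr17:34000348-34000448, minus strand), H2-D1 (chr17:35262933-35263062, plus strand), H2-Aa (chr17:34287827-34287957, minus strand) and H2-Eb1 (chr17:34305721-34305852, plus strand).
B2m: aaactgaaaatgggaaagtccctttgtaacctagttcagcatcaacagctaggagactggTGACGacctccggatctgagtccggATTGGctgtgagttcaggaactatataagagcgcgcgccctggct
H2-K1: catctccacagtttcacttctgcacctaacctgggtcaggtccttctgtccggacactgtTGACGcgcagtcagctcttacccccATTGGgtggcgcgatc
H2-D1: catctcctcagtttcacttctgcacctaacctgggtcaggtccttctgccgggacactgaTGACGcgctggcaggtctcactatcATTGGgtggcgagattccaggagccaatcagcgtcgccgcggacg
H2-Aa: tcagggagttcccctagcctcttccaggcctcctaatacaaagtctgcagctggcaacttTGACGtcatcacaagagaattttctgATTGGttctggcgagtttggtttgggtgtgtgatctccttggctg
H2-Eb1: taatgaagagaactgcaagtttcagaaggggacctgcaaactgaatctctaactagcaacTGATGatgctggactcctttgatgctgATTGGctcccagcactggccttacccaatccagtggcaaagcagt
Between the 2 cores lay 20 bases in B2m, H2-K1 and H2-D1, 21 in H2-Aa and 22 in H2-Eb1. All 5 promoters searched, on both strands, from 250 bases before to 50 after the gene start, held TGACG or TGATG followed by 18 to 22 bases and ATTGG, a spacing chosen after these promoters were seen. Of 27025 RefSeq promoters of the same length, 183 (0.677%) held it. By itself ATTGG was common (37.9% of promoters) and so was TGACG (21.0%). The interferon-type motif AANNGAAA was found in B2m, H2-K1, H2-Aa and H2-D1 and in 24.2% of all promoters. GGGATTCCC, a kappa B-type motif, was found only in the 2 heavy chain genes among those searched, against 0.370% of all promoters. These matches describe letters, not binding. The 5 promoters searched cover 5 of the 7 members. H2-Ab1 was not searched, and no search result or sequence is given for Cd74.

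Frames held 1056 to 1243 spots over tissue, 674029 to 1066633 UMIs and a median of 430 to 630.5 UMIs per spot, with 4603 spots and 3522010 UMIs in all. The 7 genes together supplied 5088 UMIs, or 0.144% of the total. At this depth most spots hold no UMI of a given member, so levels are given as CPM, the UMIs of a gene per 1e6 UMIs of the frame or region. Visium primes on the polyadenylated end, so these counts were not divided by gene length. Levels of different genes are thus captured molecules, with gene-specific capture not corrected.

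B2m was the member with the most UMIs, 1861, at 651, 598, 472 and 329 CPM in frames 1 to 4 (mean 513 ± 143, SD, n = 4). H2-K1 had 298, 269, 225 and 200.3 CPM (248 ± 43.8) and H2-D1 334, 338, 333 and 291 CPM (324 ± 22.3). Frame 4 was lowest for all 3 class I genes, by the widest margin for B2m. Class II genes lay below every class I value in every frame. Cd74 had 112, 75.9, 73.4 and 54.9 CPM (79.0 ± 23.7), and H2-Aa 74.8, 56.3, 56.5 and 74.2 CPM (65.4 ± 10.5). H2-Ab1, at 129, 111, 97.1 and 126 CPM (116 ± 14.9), was the class II gene with the most UMIs in each frame, and H2-Eb1 had 88.2, 90.9, 75.7 and 44.5 CPM (74.8 ± 21.3). The genes differed in how steady they were: the highest frame stood 1.16-fold over the lowest for H2-D1, against 1.98-fold for B2m, 2.03-fold for Cd74 and 2.04-fold for H2-Eb1. C57BL/6 mice are known to form no I-E on the cell surface because the alpha chain gene is defective, so the H2-Eb1 values are transcripts of a chain without its partner.

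**Figure D1:**
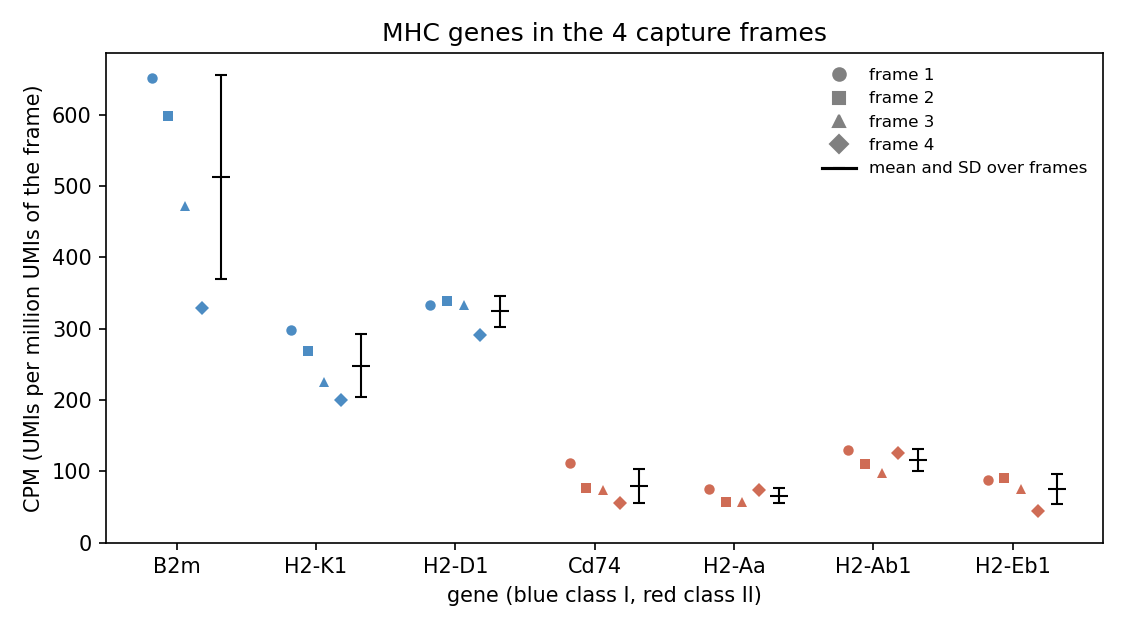
Level of each MHC gene in CPM (vertical axis) for the 7 genes (horizontal axis, class I in blue and class II in red), with 1 marker per frame and a black bar for mean and SD over the 4 frames. B2m spans 329 to 651 CPM and is lowest in frame 4, H2-D1 stays between 291 and 338 CPM, and no class II value passes 129 CPM.

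Summed over genes, class I reached 1283, 1206, 1030.0 and 820.4 CPM in frames 1 to 4 and class II 404, 334, 303 and 299.7 CPM. The ratio of class I to class II UMIs was 3.17, 3.61, 3.40 and 2.74 (mean 3.23 ± 0.375, n = 4 frames). The ratio was lowest in frame 4, where class I was low and class II close to its level in frame 3. The heavy chain genes are near-copies of each other and of H2-Q6 and H2-Q7, and how reads shared between copies were counted is not given in the sources used here, so the split of UMIs among them is uncertain.

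Both classes were sparse. A class I UMI was present in 1325 of 4603 spots (28.8%) and a class II UMI in 580 (12.6%), and 385 spots (8.36%) held both. Of the spots with class II, 66.4% also held class I, whereas 29.1% of the spots with class I also held class II. A single class II gene was seen in 433 of the 580 spots, 2 genes in 95, 3 in 25 and all 4 in 27, and each of those 27 spots also held class I. The spot with the most class II UMIs, in the blood region of frame 1, had 17 class II and 32 class I UMIs among 5595. A ganglion spot of frame 1 had 16 class II and 33 class I UMIs among 2740, and an unplaced spot of frame 4 had 16 and 10 among 840. A second ganglion spot of frame 1 stood apart: 11 H2-Aa UMIs and 1 H2-Eb1 UMI but 0 of class I among 1627.

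Regions were drawn from 111 marker genes that include no member, by clustering the 2084 spots with at least 20 UMIs of those markers. The other 2519 spots (54.7%) stayed unplaced, with a median of 313 UMIs. Regions are named after their leading genes. The photoreceptor region (633 spots) was led by photoreceptor genes such as Nrl and Cnga1, the inner nuclear region (203) by the bipolar genes Cabp5 and Grm6, and the ganglion region (436) by Pou4f1 and Nefm. In the outer coat, the pigmented region (258) was led in its 2 clusters by the pigment epithelium genes Rpe65 and Lrat and by the melanocyte genes Trpm1, Dct and Mlana, and the fibrous region (235) by Lum and Col1a2. Of the 10 leading genes of the cluster led by Trpm1, 5 were pigmented markers. Trpm1 itself was listed with the inner nuclear markers, Ogn and Fmod with the fibrous and Perp and Krt13 with the epithelium ones. The myelin region of the optic nerve (77 spots, 0 of them in frame 1) was led by Mobp and Cldn11. Blood (68), epithelium (63) and muscle (111) regions were led by Hba-a1, Krt15 and Myh1. One photoreceptor cluster of 145 spots was led by Lhx1, Dcn and Mgp, which mark other classes, so comparisons were repeated without it.

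The 2 clusters of the pigmented region differed widely in MHC level. Pooled over frames, class I was at 3725 CPM (exact 95% Poisson interval 3372 to 4106, counting error only) in the 78 spots led by Trpm1, Dct and Mlana and at 698 CPM (569 to 848) in the 180 led by Rpe65 and Lrat. By frame it was 4360, 3432, 3850 and 1166 CPM in the Trpm1 cluster, the last from 3 spots, against 775, 833, 528 and 547 CPM in the Rpe65 cluster. Class II was at 1593 CPM (1365 to 1848) in the Trpm1 cluster and 263 CPM (186 to 360) in the Rpe65 cluster, and B2m at 2005 and 249 CPM. The Rpe65 cluster thus lay below the fibrous spots in pooled class I, which were at 1043 CPM (939 to 1155). By frame fibrous spots had 715, 1234, 1411 and 782 CPM, so frame 1 ran the other way and the ranges of frames overlapped. Lists of other cells differed between the clusters as well: pooled sums in the Trpm1 and the Rpe65 cluster were 1785 and 491 CPM for microglia and macrophage genes, 5675 and 1396 CPM for B and plasma cell genes, 8320 and 594 CPM for reactive glia genes and 9071 and 2827 CPM for interferon-response genes. Endothelium genes ran the other way, at 494 CPM (371 to 645) in the Trpm1 cluster and 974 CPM (820 to 1149) in the Rpe65 cluster. The part of these lists was not tested. For the pigmented region and the coat, class sums and member folds are given below with and without the Trpm1 cluster. Leaving it out was an alternative chosen after the data were seen. Other values of these regions, such as single-gene levels, UMI shares and gene lists, include the cluster unless stated.

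By region, with both clusters in the pigmented one, the class II sum was highest there, at 1089, 699, 921 and 596 CPM in frames 1 to 4 (826 ± 221, n = 4). It was followed by blood (568 ± 663, n = 3), unplaced spots (474 ± 37.4), fibrous (399.5 ± 189), ganglion (293 ± 191), inner nuclear (233 ± 71.7), epithelium (229 ± 201, n = 3), myelin (128 ± 174, n = 3), muscle (94.3 ± 86.2) and photoreceptor spots (68.1 ± 27.5). Each region overlapped its neighbour in this order when frames were compared. The class I sum ran from 1910 ± 1046 CPM in the pigmented region over blood (1865 ± 1431), unplaced (1353 ± 242), myelin (1258 ± 547), ganglion (1156 ± 429), fibrous (1036 ± 340), inner nuclear (977 ± 405), epithelium (637 ± 363) and muscle (603 ± 257) to photoreceptor spots (407 ± 87.9), again with overlap between neighbours. Photoreceptor spots stood at the low end of both orders. The place of the pigmented region at the high end rests on the Trpm1 cluster: without it the region had 671 ± 156 CPM of class I and 307 ± 159 CPM of class II (n = 4), and its class I frames (528 to 833 CPM) overlapped those of photoreceptor spots (351 to 538 CPM). The myelin region stood among the higher regions for class I and among the lower ones for class II.

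**Figure D2:**
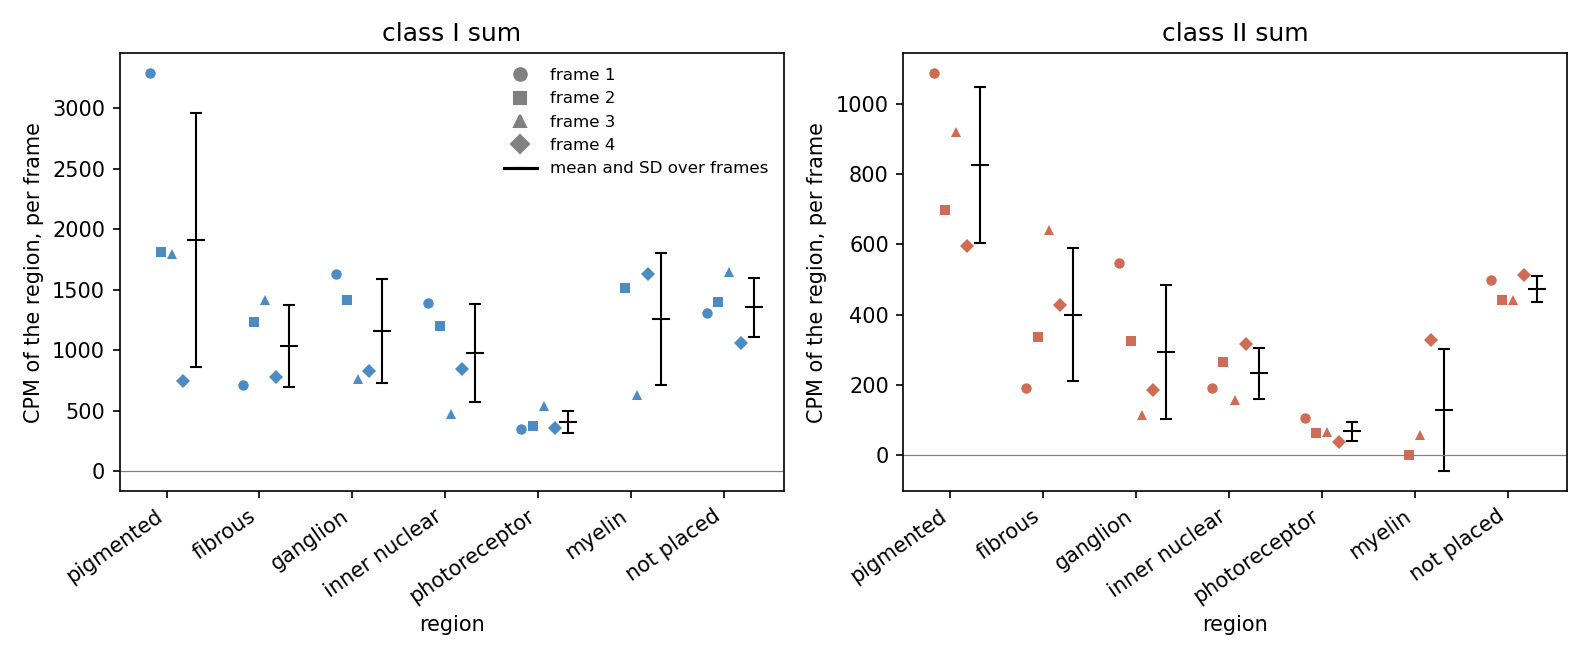
Class I sum (left, blue) and class II sum (right, red) in CPM (vertical axes, different scales) for 6 regions and the unplaced spots (horizontal axes), with 1 marker per frame and a black bar for mean and SD. Photoreceptor spots lie lowest for class I (351 to 538 CPM), pigmented spots, both clusters together, highest on average for both classes, and the myelin region has no frame 1 marker because it held 0 spots there.

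Single genes differed in how far they followed these orders, in which pigmented spots again include both clusters. B2m, the light chain, ranged from 1053 ± 705 CPM in blood and 1017 ± 565 in pigmented spots to 126 ± 20.7 in photoreceptor spots, and H2-K1 from 540 ± 269 in pigmented to 66.2 ± 27.6 in photoreceptor spots. H2-D1 was flatter: it had 686 ± 332 CPM in myelin (n = 3), 490 ± 325 in blood, 398.6 ± 72.4 in fibrous, 353 ± 249 in pigmented, 308 ± 90.2 in ganglion, 305 ± 84.3 in muscle, 282 ± 113 in inner nuclear and 214 ± 45.7 in photoreceptor spots. Cd74 was highest in pigmented spots (264 ± 129) and low in photoreceptor (18.3 ± 20.3) and muscle spots (15.2 ± 17.9). H2-Aa was highest in pigmented spots (134 ± 73.7) and also high in fibrous (96.8 ± 64.6) and ganglion spots (88.3 ± 58.6), with 0 UMIs in the myelin region, where 0 among 39776 UMIs allows up to 92.7 CPM (exact 95% Poisson limit). H2-Ab1 ran from 259 ± 122 in pigmented to 22.2 ± 1.16 in photoreceptor and 6.48 ± 13.0 in muscle spots. H2-Eb1 had 168 ± 63.7 in pigmented spots and 146 ± 193 in epithelium, where 9 UMIs were counted.

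Class II made up a larger share of member UMIs in the coat than in the neural retina. The pooled ratio of class I to class II UMIs was 2.59 in the coat (pigmented plus fibrous) and 4.58 in the neural retina (ganglion, inner nuclear and photoreceptor). Over frames the ratio was 2.48 ± 0.762 (1.64 to 3.26) in the coat, against 4.82 ± 0.884 (3.99 to 6.07) in the neural retina, and the 2 ranges did not overlap (n = 4 each). Without the Trpm1 cluster the coat's ratio was 2.73 ± 0.774 (1.89 to 3.54), which did not overlap the neural retina either. With the cluster, the ratio within the coat was 2.20 ± 0.773 in pigmented and 2.86 ± 0.994 in fibrous spots. Within the retina it was 4.61 ± 1.53 in ganglion, 4.37 ± 2.12 in inner nuclear and 6.74 ± 2.71 in photoreceptor spots. With the Trpm1 cluster, the coat held 17.3% of all UMIs, 22.5% of class I UMIs and 28.5% of class II UMIs. The neural retina held 46.3% of all UMIs, 35.8% of class I and 25.7% of class II, and unplaced spots 27.5%, 33.3% and 38.8%. In such mixed spots, fewer cells that make a transcript and less transcript per cell cannot be told apart.

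Within the retina, most members were higher in the inner layers (ganglion plus inner nuclear regions) than in the photoreceptor region. In edgeR's quasi-likelihood test on UMIs summed per frame and region, with the frame as a block and Benjamini-Hochberg adjustment over 6599 genes, 5 of 7 members rose, whereas 19.1% of all genes tested rose and 12.9% fell (32.1% in either direction). B2m had 816, 638, 338 and 303 CPM in inner retina of frames 1 to 4, against 112, 139, 148 and 106 CPM in photoreceptor spots (log2 fold 1.80 ± 0.73, SD of the frames' folds, adjusted p = 7.45e-07). H2-K1 had 332, 341, 133 and 255 CPM in inner retina, against 52.2, 52.1, 108 and 52.8 CPM in photoreceptor spots (1.75 ± 1.05, adjusted p = 0.000105). Neither gene's groups overlapped, and the gap was narrowest in frame 3 for both. H2-D1, the other heavy chain, had 363, 367, 197 and 271 CPM in inner retina, against 187, 185, 282 and 204 CPM in photoreceptor spots, with frame 3 running the other way (0.30 ± 0.68, adjusted p = 0.396). Among class II genes, H2-Aa had 98.2, 63.8, 30.0 and 59.6 CPM in inner retina, against 22.4, 5.79, 5.12 and 7.54 CPM in photoreceptor spots (2.45 ± 0.38, adjusted p = 0.000951). H2-Ab1 had 139.7, 105, 34.3 and 81.3 CPM in inner retina, against 22.4, 23.1, 20.5 and 22.6 CPM in photoreceptor spots (1.75 ± 0.72, adjusted p = 0.00324). Both I-A chains were higher in inner retina in 4 of 4 frames without overlap. No share of all genes without overlap is given beside this, or beside B2m and H2-K1. Cd74 had 68.0, 67.0, 34.3 and 37.9 CPM in inner retina, against 44.8, 23.1, 5.12 and 0 CPM in photoreceptor spots, where 11 UMIs were counted (1.44 ± 0.63, adjusted p = 0.0453). H2-Eb1 had 64.2, 70.1, 30.0 and 27.1 CPM in inner retina, against 14.9, 11.6, 35.8 and 7.54 CPM in photoreceptor spots (1.21 ± 0.95, adjusted p = 0.0987).

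For 4 of these 5 genes the call held in 14 or more of their 15 or 16 alternatives. H2-Ab1 lost it only where 50% of the UMIs drew the regions and the other 50% were tested (adjusted p = 0.0927). Cd74 passed in 6 of 15 and missed in 9, among them without frame 2, 3 or 4 (adjusted p = 0.126, 0.121 and 0.133) and with DESeq2 (0.128). H2-Eb1 passed without frame 3 (log2 fold 2.04, adjusted p = 0.0182) and without the photoreceptor cluster led by other genes (2.10, 0.0152). Markers of other cells were also higher in inner retina, and their part in the MHC values was not tested. The microglia and macrophage list summed to 218 to 461 CPM in inner retina and 134 to 156 CPM in photoreceptor spots (2 of 5 tested genes higher, C1qb and Tyrobp). The endothelium list summed to 245 to 400.4 CPM in inner retina and 74.6 to 251 CPM in photoreceptor spots (2 of 4, Ly6c1 and Vwf), and the mural cell list to 258 to 471 and 52.1 to 118 CPM (3 of 3, among them Rgs5). Ptprc, which marks leukocytes, had a log2 fold of 2.22 ± 0.59 and was the only T and NK cell gene tested. Reactive glia genes were higher in 5 of 7, among them Gfap (2.41 ± 0.77). Of the marker lists, 1 of 20 microglia and macrophage genes was at 0 in inner retina and 5 of 20 in photoreceptor spots, and the microglial gene Cx3cr1 had 2 UMIs in inner retina and 0 in photoreceptor spots. B and plasma cell genes summed to 491 to 1915 CPM in inner retina and 90.5 to 179 CPM in photoreceptor spots (2 of 2 tested higher, Igkc at a log2 fold of 2.71 ± 0.66), and dendritic cell genes, too few to test, to 12.9 to 41.5 and 0 to 5.12 CPM.

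Between the 2 inner layers few members passed the test. In ganglion against inner nuclear spots, 1 of 7 members rose, with 6.36% of 5803 genes rising and 4.57% falling (10.9% in either direction). H2-Aa had 172, 78.7, 38.1 and 64.0 CPM in ganglion spots, against 22.8, 30.7, 13.2 and 35.1 CPM in inner nuclear spots (log2 fold 1.99 ± 0.76, adjusted p = 0.0295). The ranges did not overlap, but 11 of the 56 ganglion UMIs came from the single frame 1 spot described above. Without that spot the pooled ganglion level was 68.0 instead of 84.4 CPM, against 24.01 CPM in the inner nuclear region. Without frame 1 the log2 fold was 1.39 and without frame 2 it was 2.27, and neither passed (adjusted p = 0.403 and 0.108). The call was also lost in 5 other alternatives, DESeq2 among them (0.136). B2m had 952, 653, 425 and 327 CPM in ganglion spots, against 677, 605, 158 and 176 CPM in inner nuclear spots, higher in 4 of 4 frames without passing (0.72 ± 0.52, adjusted p = 0.0927). For the other 5 members log2 folds lay between -0.44 for Cd74 and 0.88 for H2-Eb1, with adjusted p of 0.485 or more. Their groups overlapped. Igkc, an antibody light chain gene, was higher in ganglion spots (998 ± 753 against 303 ± 62.2 CPM, log2 fold 1.61 ± 0.87), and so was Ptprc (333 ± 142 against 179 ± 119 CPM, 1.22 ± 0.88). Their part in the H2-Aa value was not tested.

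With the Trpm1 cluster included, 6 of 7 members rose in the coat relative to the neural retina, and without it 1 did, H2-Eb1. The background with the cluster was 5.24% of 8449 genes tested rising and 8.68% falling (13.9% in either direction). No share of all genes is given for the fit without it, so the drop from 6 to 1 is not set against one. Cd74 had 147, 115, 222 and 113 CPM in the coat, against 60.2, 51.4, 21.0 and 22.1 CPM in the neural retina (log2 fold 1.86 ± 0.90, adjusted p = 4.90e-06). H2-Eb1 had 91.8, 162, 191 and 75.4 CPM in the coat, against 47.6, 49.3, 32.7 and 18.9 CPM in the neural retina (1.72 ± 0.60, adjusted p = 5.02e-05). H2-Ab1 had 153, 149.7, 229 and 113 CPM in the coat, against 100.3, 76.1, 28.0 and 56.7 CPM in the neural retina (1.31 ± 1.00, adjusted p = 0.000737). These 3 genes did not overlap between tissues, with no share of all genes beside that count. H2-Aa had 36.7, 81.2, 152 and 169.6 CPM in the coat, against 72.7, 43.2, 18.7 and 37.8 CPM in the neural retina, so that frame 1 ran the other way (1.18 ± 1.52, adjusted p = 0.0192). B2m had 667, 679.9, 749.7 and 320.4 CPM in the coat, against 579, 460.4, 252 and 221 CPM in the neural retina, higher in 4 of 4 frames with overlap (0.67 ± 0.58, adjusted p = 0.00358). H2-K1 had 349, 389, 445 and 169.6 CPM in the coat, against 238, 238, 121 and 170.2 CPM in the neural retina (0.81 ± 0.77, adjusted p = 0.00404). Frame 4 was level for H2-K1, and frame 1 showed the smallest difference for B2m. H2-D1 had 379, 440.4, 426 and 283 CPM in the coat, against 303, 302, 236 and 243 CPM in the neural retina (0.46 ± 0.28, adjusted p = 0.138). Its fold was the smallest of the 7 and the most even over frames.

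Without the Trpm1 cluster the log2 folds were 1.19 for H2-Eb1 (adjusted p = 0.0421), 0.98 for Cd74 (0.143), 0.74 for H2-Aa (0.341), 0.53 for H2-Ab1 (0.476), 0.27 for H2-D1 (0.569), 0.16 for H2-K1 (0.820) and -0.13 for B2m (0.824), so that B2m changed direction. The coat's class I sum was then 721, 1089, 1035 and 738 CPM (896 ± 193), against 1324 CPM on average with the cluster, and its class II sum 225, 307, 457 and 389.6 CPM (345 ± 101), against 551 CPM with it. H2-Eb1 kept its call in all 17 alternatives and Cd74 in the other 16. Leaving out frame 3 also moved the rest: without it the log2 folds were 0.36 for B2m, 0.45 for H2-K1, 0.57 for H2-Aa and 0.78 for H2-Ab1, with adjusted p of 0.327, 0.313, 0.539 and 0.193. H2-K1 also missed without frame 2 (0.0649), and H2-Aa without frame 2 (0.0861) or frame 4 (0.113). H2-Aa passed in 8 of 17 alternatives, and also missed with a filter at 10 counts (0.0564), with no filter (0.0690), without the photoreceptor cluster led by other genes (0.0552) and where 50% of the UMIs drew the regions (log2 fold 0.24, adjusted p = 0.855). With DESeq2, B2m (0.0756), H2-K1 (0.0842) and H2-Aa (0.136) missed, and with no block B2m did (0.0681). H2-D1 passed without frame 4 (0.62, adjusted p = 0.0322), with a filter at 10 counts (0.0481) and with k-means regions (0.0239). With the Trpm1 cluster included, markers of other cells again moved with the coat, and their part was not tested. The microglia and macrophage list summed to 302 to 1156 CPM in the coat and 182 to 351 CPM in the neural retina. Of its 10 tested genes 3 rose: Lyz2, a lysozyme gene of myeloid cells (225 ± 178 against 49.3 ± 14.9 CPM), the complement gene C1qa (78.6 ± 56.2 against 23.8 ± 9.17 CPM) and Tyrobp (125 ± 55.4 against 66.2 ± 10.1 CPM). The endothelium list summed to 358 to 594 CPM in the coat and 201 to 308 CPM in the neural retina, with 2 of 6 genes higher, among them Plvap of fenestrated vessels (log2 fold 3.10 ± 0.39). Reactive glia genes rose in 5 of 10 tested and fell in 1 (median log2 fold 1.11, against -0.10 over all genes), with sums of 829 to 2532 CPM in the coat and 829 to 1058 CPM in the neural retina. Among those that rose, Serpina3n was at 180 ± 71.9 against 27.9 ± 4.09 CPM (log2 fold 2.68 ± 0.79), and the complement gene C4b had a log2 fold of 2.45 ± 0.35. Gfap ran the other way, at 57.9 ± 42.4 CPM in the coat and 129 ± 15.3 CPM in the neural retina. Pooled, the reactive glia sum was 8320 CPM in the Trpm1 cluster, 594 CPM in the Rpe65 cluster and 1040 CPM in fibrous spots. Mural cell genes rose in 1 of 4 tested, the smooth muscle gene Myh11 (1.83 ± 1.07), and summed to 132 to 556 CPM in the coat and 185 to 310 CPM in the neural retina. B and plasma cell genes summed to 379 to 3571 CPM in the coat and 386 to 1122 CPM in the neural retina (2 of 3 higher, Ighm and Jchain). Their pooled sum was 5675 CPM in the Trpm1 cluster, 1396 CPM in the Rpe65 cluster and 1232 CPM in fibrous spots. Of the 1258 coat UMIs of this list, 4 were of the B cell gene Cd79a. The T and NK cell sum was 172 to 265 CPM in the coat and 103 to 312 CPM in the neural retina, with its 1 tested gene, Ptprc, at 177 ± 33.5 CPM in the coat and 188 ± 76.8 CPM in the neural retina. Of the 133 coat UMIs of that list, 108 were of Ptprc, which marks leukocytes. For dendritic cell genes, none of which was abundant enough to test, the sums were 8.55 to 18.8 CPM in the coat and 9.33 to 27.6 CPM in the neural retina. Itgax, their surface integrin, had 4 UMIs in the coat and 2 in the neural retina.

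Inside the coat, 3 members were higher in pigmented than in fibrous spots when both pigmented clusters were counted, and none without the Trpm1 cluster. With 4.31% of 3690 genes rising and 3.71% falling (8.02% in either direction), 3 of 7 members rose. B2m had 1829.9, 843, 874 and 522 CPM in pigmented spots, against 249, 531, 601 and 252 CPM in fibrous spots (log2 fold 1.26 ± 1.05, adjusted p = 0.00250). H2-K1 had 880.2, 519.95, 536 and 224 CPM in pigmented spots, against 158, 269.8, 335 and 151 CPM in fibrous spots (1.26 ± 0.86, adjusted p = 0.0111). Cd74 had 440.1, 188, 279.7 and 149 CPM in pigmented spots, against 41.6, 49.1, 154 and 101 CPM in fibrous spots (1.78 ± 1.09, adjusted p = 0.00556). Each was higher in 4 of 4 frames, with overlap between frames, and frame 1 held the widest gap for all 3. H2-D1 had 579, 448, 385 and 0 CPM in pigmented spots, against 308, 433, 475 and 379 CPM in fibrous spots (-0.05 ± 1.48, adjusted p = 0.965), the 0 coming from the 14 pigmented spots of frame 4. H2-Ab1 (259 ± 122 against 109 ± 40.1 CPM, 1.27 ± 0.95, adjusted p = 0.0685), H2-Eb1 (0.78 ± 0.64, 0.445) and H2-Aa (0.51 ± 0.43, 0.750) did not pass. With the Rpe65 cluster alone set against fibrous spots, the log2 folds were -0.77 for B2m, -0.30 for H2-K1 and 0.27 for Cd74 (adjusted p = 0.614, 0.950 and 0.967), the other 4 members lay between -0.98 and -0.69, and 54 genes passed in place of 296. In edgeR that is 0 of 7 members past the limit, with H2-D1 alone at an unadjusted p under 0.05 (-0.98, unadjusted p = 0.0450, adjusted p = 0.465). No share of all genes is given for this fit either, so the drop from 3 to 0 is not set against one. Of 16 alternatives B2m kept its call in 10, and H2-K1 and Cd74 in 7 each. Without frame 1 the log2 folds were 0.68 for B2m, 0.80 for H2-K1 and 1.22 for Cd74 and none passed (adjusted p = 0.421, 0.412 and 0.280). Without frame 2 H2-K1 (0.0748) and Cd74 (0.0868) missed, and when each spot took the marker class with its largest share all 3 missed, at 0.19, 0.15 and 0.29 on the log2 scale. All 3 also missed with no filter on low counts and with k-means regions, H2-K1 and Cd74 with DESeq2 and with 10 panel UMIs, B2m and H2-K1 with 50% of the UMIs, and Cd74 at Leiden resolution 1 (adjusted p = 0.0652 to 0.796 over these). With both clusters counted, reactive glia genes were higher in pigmented spots, with 3 of 8 passing: Lcn2 (683 ± 696 against 80.5 ± 62.1 CPM), the complement gene C3 (2083 ± 1580 against 449.8 ± 217 CPM) and Serpina3n (414 ± 265 against 73.9 ± 67.9 CPM). The interferon-response sum was 1937 to 10493 CPM in pigmented spots and 2906 to 6229.5 CPM in fibrous spots, with Ifi27 and Ifitm3 passing among 19 tested. The microglia and macrophage list had none of its 5 tested genes past the limit in edgeR (1 with an unadjusted p under 0.05), with sums of 224 to 1317 CPM in pigmented and 328 to 964 CPM in fibrous spots, and the part of these cells in the members' values was not tested.

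**Figure D3:**
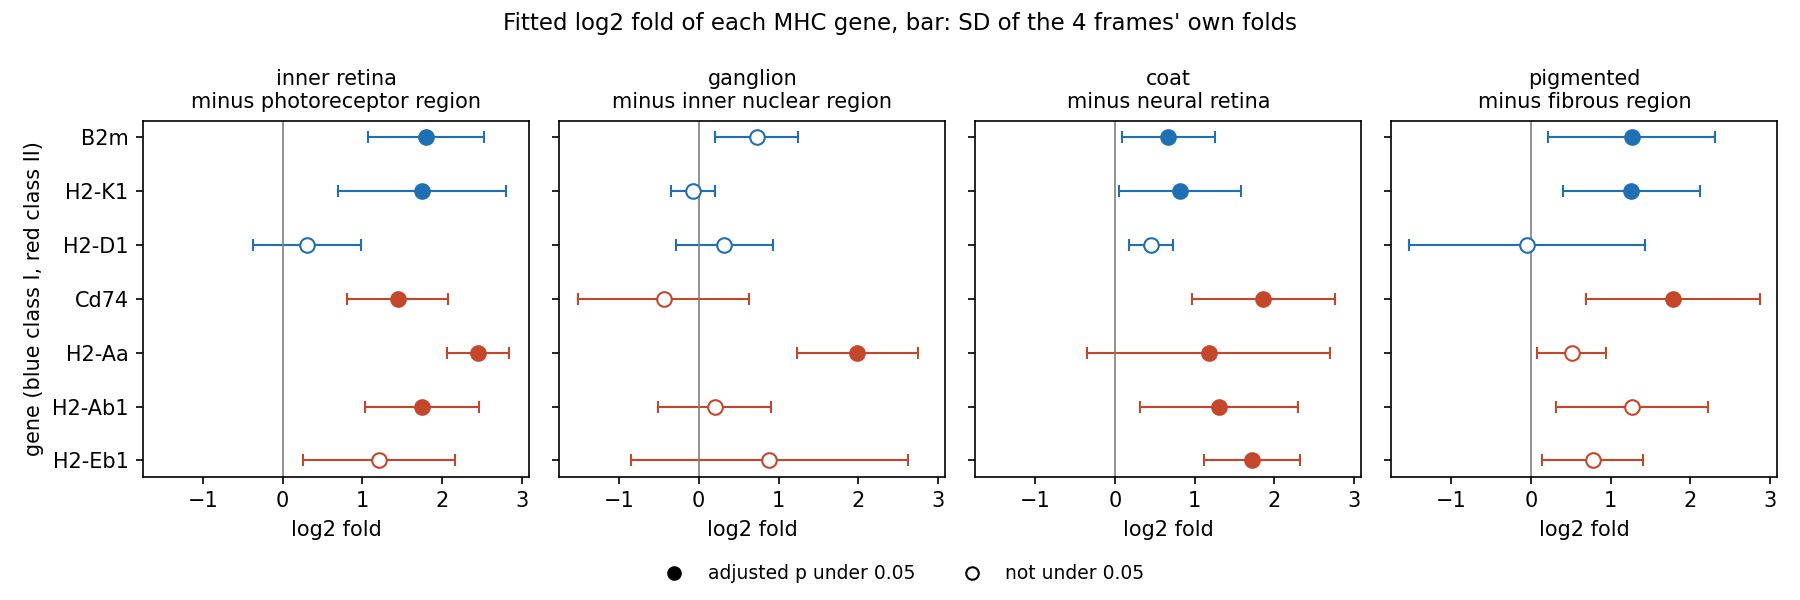
Fitted log2 fold (horizontal axes) of the 7 MHC genes (rows, class I in blue and class II in red) in 4 comparisons between regions, with bars for the SD of the 4 frames' own folds. Filled markers passed the test. H2-D1 is open in all 4 panels, while Cd74 is filled in 3 and lies at -0.44 for ganglion minus inner nuclear region. The coat and pigmented panels include the Trpm1 cluster, without which no fold of these 2 panels passed but that of H2-Eb1 in the coat.

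In the myelin region the members could be compared over 3 frames only, and 54 member UMIs were found there, 47 of class I and 7 of class II. With edgeR, 0 of 7 members passed against the neural retina and 0 of the 6 tested passed against the coat, in fits where 5.48% of genes (1.49% higher, 3.99% lower) and 11.7% (5.78% higher, 5.9% lower) passed. None had an unadjusted p under 0.05, and none passed with DESeq2. H2-D1 had 1008, 344 and 708 CPM in myelin spots of frames 2 to 4, against 302, 236 and 243 CPM in the neural retina and 440.4, 426 and 283 CPM in the coat. B2m had 0, 229 and 599 CPM in myelin spots, against 460.4, 252 and 221 CPM in the neural retina and 679.9, 749.7 and 320.4 CPM in the coat. H2-D1 was thus above the neural retina in 3 of 3 frames and B2m in 1 of 3, and each myelin value rests on a handful of UMIs (23 for H2-D1 and 15 for B2m over 77 spots). The class II sum was 0, 57.4 and 327 CPM in myelin spots, against 219.9, 100.3 and 136 CPM in the neural retina and 509, 794 and 471 CPM in the coat, below the coat in 3 of 3 frames. Pooled, it was 176 CPM in myelin spots (95% Poisson interval 70.8 to 363) and 558 CPM in the coat (499.96 to 620.4), intervals that cover counting error only. Without the Trpm1 cluster the coat's pooled class II level was 331 CPM, inside the myelin interval. By frame the coat then had 307, 457 and 389.6 CPM in frames 2 to 4, with myelin spots still below it in 3 of 3 frames. The scaling of libraries moved these fits: the median log2 fold of all genes for myelin minus neural retina was -1.45 with TMM, -1.22 with RLE size factors and -0.52 with none. The fitted direction of B2m, H2-K1 and H2-Ab1 against the neural retina flips with it, so no direction is read from the fitted folds. The glial filament gene Gfap marked the region strongly (7144 ± 2669 CPM, against 134 ± 14.8 CPM in the neural retina). Dendritic cell genes had 0 UMIs, T and NK cell genes 1 and B and plasma cell genes 3 in myelin spots. Microglia and macrophage genes had 45 UMIs there (1159 ± 318 CPM).

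The classes were also compared from spot to spot. Spots with at least 1 class II UMI (580) were set against the other 4023, a comparison added after the data were seen, in which class II itself was not tested because it chose the spots. All 3 class I genes rose in class II spots, against 3.49% of 10172 genes, with 4.08% falling (7.57% in either direction). B2m had 1939, 1453, 1132 and 864 CPM in class II spots of frames 1 to 4, against 249, 315, 311 and 221 CPM in the others (log2 fold 2.10 ± 0.49, adjusted p = 9.10e-19). H2-K1 had 793, 723, 569 and 441 CPM in class II spots, against 144, 119, 141 and 152 CPM in the others (2.03 ± 0.48, adjusted p = 6.04e-16). H2-D1, which passed in no comparison of regions, had 718, 697, 626 and 529 CPM in class II spots, against 214, 219.7, 261 and 243 CPM in the others (1.30 ± 0.30, adjusted p = 6.26e-10). No group overlapped for any of the 3 genes, with no share of all genes beside that count. The calls held in all 14 alternatives, with log2 folds of 1.85 to 2.58 for B2m, 1.88 to 2.40 for H2-K1 and 1.12 to 1.59 for H2-D1. Class II spots made up 12.6% of spots and 21.8% of all UMIs, and they held 54.1% of class I UMIs, 58.8% of B2m, 57.4% of H2-K1 and 44.0% of H2-D1 UMIs. They were deeper, with a median of 986.5 UMIs against 521 in the others. Among spots with at least 500 UMIs on both sides the log2 folds were 2.21, 2.15 and 1.33 for B2m, H2-K1 and H2-D1.

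The class I level was higher in spots with more class II UMIs. It was 647 ± 48.3 CPM at 0 class II UMIs (4023 spots), 1568 ± 329.6 at 1 (386 spots), 2924 ± 514 at 2 to 3 (125 spots) and 4794 ± 1252 at 4 or more (69 spots, n = 4 frames throughout). The range of frames did not overlap between any of these bins except the last 2, at 2457 to 3436 and 3152 to 5880.5 CPM. H2-D1 climbed less, with 234, 436, 779 and 957 CPM on average, than B2m with 274, 733, 1558 and 2587 CPM. Median depth climbed with the bins too, at 521, 777, 1225 and 2306 UMIs. Within spots of like depth the difference was present in each of 5 depth classes: at 800 to under 1600 UMIs, class I had 2604 CPM in class II spots and 554 CPM in the others, and at 1600 or more UMIs 2933 and 699 CPM. Below 200 UMIs, where 36 of 825 spots had class II, it was 1538 and 1074 CPM.

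**Figure D4:**
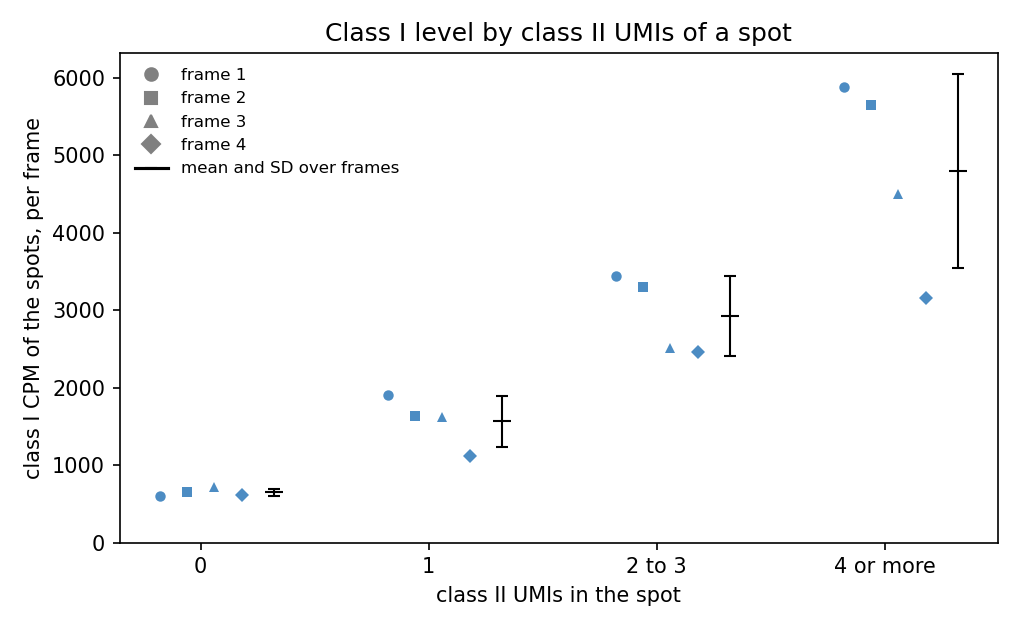
Class I sum in CPM (vertical axis) of spots with 0, 1, 2 to 3 and 4 or more class II UMIs (horizontal axis), with 1 marker per frame and a black bar for mean and SD. The 4 frames lie between 606 and 713 CPM at 0 and between 3152 and 5880.5 CPM at 4 or more, with frame 4 lowest in the upper bins.

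Within 4 regions class I was higher in class II spots in every frame. It was at 4013 CPM in pigmented spots with class II and 700.1 CPM in those without, at 2598 and 637 CPM in ganglion spots, at 2547 and 522 CPM in inner nuclear spots and at 1649 and 727 CPM in fibrous spots, higher in 4 of 4 frames each. In the Trpm1 cluster class I was at 4705 CPM in 43 spots with class II (exact 95% Poisson interval 4234 to 5214) and 1349 CPM in 35 without (976 to 1817), and in the Rpe65 cluster at 1613 CPM in 21 (1130 to 2233) and 531 CPM in 159 (410 to 677). The smaller regions varied more: blood had 3014 CPM with class II and 1060 CPM without, higher in 2 of 4 frames, epithelium 1425 and 484 CPM, higher in 2 of 3, and muscle 1494 and 503 CPM, higher in 2 of 3. Photoreceptor spots had 835 CPM in the 40 spots with class II and 382 CPM in the 593 without, higher in 3 of 4 frames. Their share with class II was 40 of 633 at a median of 883 UMIs, against 82 of 436 ganglion spots at 1325, and free RNA was not measured separately. In the myelin region, 5 class I UMIs in 6 class II spots (1338 CPM, exact 95% Poisson interval 434 to 3122) and 42 in the other 71 (1165 CPM, 840 to 1575) gave overlapping intervals, higher in 0 of 2 frames. With edgeR on neural retina spots alone the log2 folds were 2.02 for B2m, 2.10 for H2-K1 and 1.29 for H2-D1, and on coat spots alone 2.43, 2.15 and 1.12, all past the limit. Unplaced spots had 3877 CPM of class I in the 255 spots with class II and 829 CPM in the 2264 without.

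Other genes of antigen presentation, in lists that are not independent of earlier results, followed the class II spots in part. Of 14 genes that supply and load class I peptides, all tested, 7 rose and 0 fell there (median log2 fold 1.15, against -0.03 over all genes). They included Psmb8, an immunoproteasome subunit (169 ± 33.7 against 47.4 ± 19.3 CPM, log2 fold 1.67 ± 0.32), the proteasome activator Psme1 (1.52 ± 0.94) and the peptide transporter Tap1 (1.78 ± 1.04). Other class I heavy chains rose in 4 of 7 tested of 15 (median 1.90), with H2-Q7 at 123 ± 43.0 against 28.7 ± 9.81 CPM, H2-T23 at 106 ± 41.7 against 25.8 ± 6.87 CPM and H2-Q6 at 76.7 ± 35.1 against 14.4 ± 4.44 CPM. Of 17 genes for class II loading and control, 5 of 9 tested rose (median 0.85), among them cathepsin S, which cuts the invariant chain (Ctss, 229 ± 51.7 against 68.2 ± 12.2 CPM), and the peptide exchange factor H2-DMb1 (26.6 ± 7.07 against 2.07 ± 1.85 CPM). Interferon-response genes rose in 25 of 28 tested (median 1.62). Their summed level was 8554 ± 2358 CPM in class II spots and 3139.6 ± 107 CPM in the others. The chemokine gene Cxcl10 had 118 ± 35.4 CPM in class II spots and 13.1 ± 5.80 CPM in the others, and Ifitm3 283 ± 121 and 52.3 ± 8.12 CPM.

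Between regions the counts of these lists are read against the background shares given above, 19.1% of genes rising and 12.9% falling in inner retina and 5.24% and 8.68% in the coat. In inner retina against photoreceptor spots, Psme1 (1.78 ± 0.83) and Psmb8 (1.58 ± 0.15) rose while the chaperone gene Calr was lower (410.4 ± 79.6 against 773 ± 130 CPM, log2 fold -1.06 ± 0.50), 2 higher and 2 lower of 12 tested (median 0.70, against 0.09 over all genes). Other heavy chains rose in 3 of 4 tested (H2-Q6, H2-Q7 and H2-T22, median 1.83) and interferon-response genes in 8 of 22 (median 1.05). Of 4 class II loading and control genes tested, 1 rose, Ctss (1.68 ± 0.66), and 2 fell, the ubiquitin ligase gene March1 (24.1 ± 11.99 against 90.4 ± 36.9 CPM) and the endosomal protease gene Lgmn (64.3 ± 22.7 against 110.03 ± 45.6 CPM, log2 fold -0.94 ± 0.58). In the coat against the neural retina, 3 of 14 supply genes rose (Tapbp, Calr and Pdia3, median 0.41, against -0.10 over all genes), 1 of 5 other heavy chains (Fcgrt, log2 fold 3.04 ± 0.77), 1 of 8 class II loading genes (Ctsl, 1.52 ± 0.23) and 5 of 26 interferon-response genes (median 0.36). These coat counts include the Trpm1 cluster. Nothing is read from the lists with 1 gene past the limit. Ctsl encodes cathepsin L, a protease of the same family as cathepsin S.

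Immune and vascular markers were higher in class II spots as well, and their part in the class I values was not tested. Microglia and macrophage genes rose in 10 of 13 tested, with sums of 979 to 1350.5 CPM in class II spots and 262 to 309 CPM in the others. Lyz2 had 339 ± 144 against 61.6 ± 7.18 CPM and Tyrobp 266 ± 31.8 against 83.2 ± 15.2 CPM. In the T and NK cell list 2 of 3 tested rose, Ptprc (728 ± 214 against 143 ± 37.2 CPM) and the T cell receptor gene Trac (35.8 ± 32.5 against 3.78 ± 3.00 CPM), the list summing to 534 to 1042 CPM and 124 to 202 CPM. B and plasma cell genes summed to 838 to 4011 CPM in class II spots and 439 to 939 CPM in the others and none of the 3 tested passed (3 with an unadjusted p under 0.05 in edgeR), Igkc being at a log2 fold of 1.54 and adjusted p = 0.192. Endothelium (3 of 11) and mural cell genes (1 of 6) rose in part, and reactive glia genes in 6 of 10, among them C3 (2651 ± 389.7 against 432 ± 97.0 CPM) and Lcn2 (828 ± 305 against 164 ± 22.6 CPM). Dendritic cell genes summed to 37.2 ± 24.5 and 16.4 ± 1.38 CPM, too few to test. Class II spots were lower in 3 genes chosen after their values were seen: Lars2 (log2 fold -1.94), Gm42418 (-1.69) and AY036118 (-1.45). Their part in the comparison was not tested.

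Across 33 region and frame units with at least 10 spots, the genes whose log2(CPM + 10) ran most like the class I sum, among 4789 genes with at least 100 UMIs, were C1qa (r = 0.73), Laptm4a (0.72), Tyrobp (0.71), Cxcl10 (0.71) and Ifitm3 (0.71). Most like the class II sum were Gfra1 (0.80), Ly6e (0.76), Tmem51 (0.75), Psap (0.74) and Pdcd4 (0.72). These are descriptions, since units of a frame share a library and units differ in depth. Among members, B2m ran with H2-Ab1 (r = 0.75) and Cd74 with H2-Eb1 (0.71), whereas H2-D1 had r between -0.01 and 0.15 with B2m and the 4 class II genes and 0.40 with H2-K1.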

How the data were processed

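The deposited matrices hold counts of UMIs per gene and spot, produced by the authors with Space Ranger (version 2.0.0, per the file headers) against mm10, the build in the submitters' processing notes. The handling of reads shared between gene copies is not given in the sources used. All 4 frames and every spot called over tissue were used, and 121 spot barcodes occurred in all 4 frames, which reuse one printed barcode set.

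Spots with at least 20 UMIs of 111 marker genes were clustered with scanpy 1.11.5 (10 principal components, 15 neighbours, Leiden resolution 0.6, 12 clusters). A cluster took the marker class that held most of its 10 leading genes. UMIs were then summed per frame and region with at least 10 spots, in at least 3 frames. edgeR 4.0.16 in R 4.3.3 tested them by its quasi-likelihood test with TMM scaling, a filterByExpr minimum of 3, the frame as a block and Benjamini-Hochberg adjustment over all genes tested at 0.05. Library sizes and tests excluded the marker genes. The frame was kept as a block because both regions come from the same frame, although deviations of a pair correlated weakly (-0.014 to 0.121). The ± of a fold is the SD over log2 folds computed frame by frame (prior count 2). CPM uses all UMIs. Overlap of frame ranges is described for single members and sums, and no share of all genes without overlap is given. Intervals are exact 95% Poisson intervals and cover counting error only. Depth per frame was 674029 to 1066633 UMIs. DESeq2 1.42.0 was an alternative, as was leaving out the pigmented cluster led by Trpm1 (chosen after the data were seen). The fits were also run on simulated data, with no result given here, so nothing is read from that run. The p-values set the mean difference within frames against its variation from frame to frame. The labels do not say which animals the frames came from, so that variation may be technical.

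The members, comparisons and 11 gene lists (153 of 154 genes matched) were chosen with earlier results of these data known. List genes named are the 3 with the lowest p among those called per list and comparison, with a few others named as members of a count. Promoters come from RefSeq on GRCm38.p6. Spot positions and images were not used here.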

Additional observations from a re-analysis of the deposited data

Results flagged for a closer look

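In 72 groups of 4 frames, 4 had a highest or lowest frame set apart from the others by Dixon's test, where chance flags about 1 in 20 groups. H2-D1 stood at 290.8 CPM over all spots of frame 4, against 333 to 338 CPM in the other frames. In the photoreceptor region, H2-K1 stood at 107.5 CPM in frame 3, against 52.1 to 52.8 CPM in the others, and the class I sum at 537.6 CPM in frame 3, against 351 to 376 CPM. H2-Aa there stood at 22.4 CPM in frame 1, against 5.12 to 7.54 CPM in the others, with 6 UMIs over all 4 frames. The unplaced spots, which entered no comparison between regions, held class I at 1353 ± 242 CPM and class II at 473.6 ± 37.4 CPM (SD, n = 4 frames).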

How the results depend on the processing

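Of 666 member folds refitted under the alternatives, 547 kept direction and side of the threshold, 58 lost their call, 6 gained one and 55 changed sign. Of 72 levels recomputed, 70 moved by less than 1 SD. The other 2 were the coat's class I and class II sums, at 896 and 345 CPM without the Trpm1 cluster, against 1324 and 551 CPM with it. The cause of each change was not tested. Counts of genes called moved as follows. Inner retina minus photoreceptor region (2116) moved least, at 1653 to 1994 with a frame left out. Coat minus neural retina (1176) gave 648 with DESeq2, 668 with 50% of the UMIs and 643 to 1047 with a frame left out. Pigmented minus fibrous region (296) gave 184 without a filter, 166 with DESeq2, 176 at Leiden resolution 1, 142 with k-means, 196 at 10 panel UMIs, 43 by largest share, 155 with 50% of the UMIs, 54 without the Trpm1 cluster and 160 to 286 with a frame left out. Ganglion minus inner nuclear region (634) gave 394 with DESeq2, 414 with k-means, 213 with 50% of the UMIs and 342 to 525 with a frame left out. Class II spots minus the others (770) gave 377 with DESeq2, 269 in retina spots, 149 in coat spots and 405 to 736 with a frame left out. Myelin minus neural retina (309) gave 139 by largest share and 0 to 254 with a frame left out, the 0 without frame 3 (231 at an unadjusted p under 0.05). Myelin minus coat (194) gave 57 without a filter, 109 by largest share, 92 with 50% of the UMIs and 8 to 137 with a frame left out. With no replicate block the myelin counts were 1013 against the neural retina and 369 against the coat, and the block changed no other count by over 1.5 times. The share of calls that were higher moved with scaling from 46.1% to 71.4% without TMM for class II spots, 58.2% to 47.2% for ganglion spots, 27.2% to 39.1% (RLE) and 70.0% (none) for myelin minus neural retina, and 49.5% to 38.4% (RLE) for myelin minus coat.

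Members changed sign from folds that had passed only without the Trpm1 cluster: B2m gave -0.13 for coat minus neural retina, and B2m -0.77 and H2-K1 -0.30 for pigmented minus fibrous region, where H2-Aa (-0.95), H2-Ab1 (-0.69) and H2-Eb1 (-0.84) also changed sign. All other changes of sign were from folds that had not passed. For inner retina, H2-D1 gave -0.0154 at resolution 1 and -0.11 by largest share. For pigmented minus fibrous region, H2-D1 gave 0.0275 (minimum 10), 0.0469 (no block), 0.19 (resolution 1), 0.0011 (k-means), 0.31 (50% of the UMIs) and -0.41 to 0.21 with a frame left out, and by largest share H2-Aa gave -0.31 and H2-Eb1 -0.13. For ganglion spots, H2-K1 gave 0.0933 (no filter), 0.25 (10 panel UMIs), 0.80 (50% of the UMIs) and -0.16 to 0.0770 with a frame left out, Cd74 0.11 (10 panel UMIs), 0.18 (largest share) and 0.57 (50% of the UMIs), and H2-Ab1 -0.22 (50% of the UMIs) and -0.28 to 0.45 with a frame left out. For myelin minus neural retina, B2m gave 0.0029 (minimum 10), 0.15 (50% of the UMIs), 0.63 (no TMM) and -1.72 to 0.20 with a frame left out, H2-K1 0.17 (minimum 10) and 0.77 (no TMM), and H2-Ab1 0.42 (minimum 10), 0.19 (RLE), 0.11 (DESeq2), 0.43 (largest share), 0.92 (50% of the UMIs), 0.91 (no TMM) and -0.70 to 0.39 with a frame left out. Cd74 gave -0.31 (no filter), -0.10 (resolution 1), -0.0479 (10 panel UMIs), -0.48 (50% of the UMIs) and -5.89 to 0.70 with a frame left out, and H2-Eb1 -0.40 (no filter), -0.0748 (no block), -0.14 (resolution 1), -0.24 (k-means), -0.0155 (10 panel UMIs), -0.29 (largest share) and -6.20 to 0.64 with a frame left out. For myelin minus coat, H2-D1 gave -0.29 (no filter) and -0.46 to 0.81 with a frame left out, B2m 0.10 (50% of the UMIs) and H2-K1 -2.10 to 0.25 with a frame left out. Depth limits the class II genes most, at 227 to 405 UMIs each over all frames.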

Other observations

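Ptprc, which marks leukocytes, was higher in unplaced spots (526 ± 83.9 CPM, n = 4 frames) than its level over all spots (271 ± 64.3 CPM), with no test made. The spot with the most class I UMIs, in the pigmented region of frame 1, held 45 class I and 6 class II UMIs among 3139, 27 of them B2m.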
